A study of Arabidopsis thaliana with 6 samples.

Results

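The type-A response regulators are a family of 10 genes of Arabidopsis thaliana, ARR3 to ARR9 and ARR15 to ARR17, and they were taken by gene identifier, 10 of the 33189 rows of the deposited gene table. All 10 have a row. The study measured total RNA of whole seedlings 7 days old, in the mutant tsk-4 and in the wild type Col, with 3 libraries of each. The mutant is in the Col ecotype and carries a mutant allele of TONSOKU (TSK), a nuclear protein of DNA repair at replication forks, and no treatment is named. Reads counted in genes, as recovered from the deposited levels, numbered 14418394 to 14946295 per tsk-4 library and 13726929 to 14934533 per Col library. Reads outside the gene table are not included. Whether the 3 libraries of a genotype come from separate growths is not stated, so a p-value reflects the spread among these libraries alone, which may be technical.

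Cytokinins are plant hormones that promote cell division in the shoot, slow it in the root meristem and delay leaf ageing. Receptor histidine kinases pass a phosphate through phosphotransfer proteins to nuclear response regulators. Type-B regulators bind DNA and switch on target genes, among them the type-A genes. Type-A proteins have the same receiver domain without a DNA-binding domain and restrain the pathway, so their transcripts are widely used as a readout of cytokinin response. In the shoot meristem the homeodomain protein WUSCHEL represses ARR5, ARR6, ARR7 and ARR15.

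The family falls into 5 sister pairs. ARR3 with ARR4, ARR5 with ARR6, ARR7 with ARR15, ARR8 with ARR9 and ARR16 with ARR17 shared 79.4% to 82.9% of their aligned coding bases, against at most 72.6% for any of the other pairs. The longest identical run between the transcripts of any pair was 41 bases, for ARR3 with ARR4 and for ARR8 with ARR9, and it was 19 bases for ARR7 with ARR15. How reads that map to several places were counted is not given in the sources used here. ARR6, ARR8 and ARR9 overlap a gene on the other strand, so their reads are uncertain.

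The 250 bases before the annotated start are shown for the members that were called lower, ARR4, ARR7 and ARR15, and for ARR5, which was not called. They come from the RefSeq sequence of build TAIR10.1, and all are on the minus strand. Capitals mark the core motifs bound by type-B regulators, AGATT, its variant AGATC, and the forms GGATT as well as GGATC, on either strand.
ARR4 (chr1:3444361-3444610): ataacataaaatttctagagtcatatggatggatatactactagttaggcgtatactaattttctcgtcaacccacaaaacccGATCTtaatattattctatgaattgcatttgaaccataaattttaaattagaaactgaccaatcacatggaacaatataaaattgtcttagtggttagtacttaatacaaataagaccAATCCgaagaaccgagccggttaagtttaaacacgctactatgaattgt
ARR7 (chr1:6579315-6579564): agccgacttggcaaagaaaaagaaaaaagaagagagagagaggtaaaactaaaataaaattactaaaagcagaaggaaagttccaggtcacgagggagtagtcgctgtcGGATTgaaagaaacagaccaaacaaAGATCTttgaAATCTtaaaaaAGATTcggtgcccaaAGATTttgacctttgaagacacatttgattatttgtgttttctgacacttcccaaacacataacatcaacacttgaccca
ARR15 (chr1:28133026-28133275): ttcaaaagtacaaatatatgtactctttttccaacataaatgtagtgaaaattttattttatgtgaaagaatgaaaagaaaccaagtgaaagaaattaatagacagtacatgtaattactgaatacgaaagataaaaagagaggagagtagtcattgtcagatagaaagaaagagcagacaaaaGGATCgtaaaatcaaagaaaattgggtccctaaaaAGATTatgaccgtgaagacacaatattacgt
ARR5 (chr3:17760951-17761200): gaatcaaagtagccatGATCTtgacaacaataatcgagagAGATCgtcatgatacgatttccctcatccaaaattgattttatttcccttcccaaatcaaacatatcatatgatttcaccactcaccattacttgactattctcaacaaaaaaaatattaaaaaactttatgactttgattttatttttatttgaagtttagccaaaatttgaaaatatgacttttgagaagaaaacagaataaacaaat

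ARR7 held 5 stretches of core motif, counting overlapping matches as 1 stretch, and ARR16 also held 5. ARR6 held 4 and each of the other members, ARR15 included, held 2. At least 1 core motif was present in all 10 members, and in 85.2% of 27437 protein-coding genes searched over the same window, where the median was 2 stretches. A window with 5 or more stretches was found for 6.17% of those genes. The longer form AAGATCTT, which holds the core AGATC on both strands, was in ARR7 alone of the members and in 0.809% of all windows. The form AAGATTTT, which holds the core AGATT, was in 4 members and 5.98% of all windows, and AGATACG was in 0 members and 1.69%. The upstream windows of ARR7 and ARR15 also resembled each other, with 125 matched bases in 188 aligned. The next pair, ARR5 with ARR15, had 53 matched bases in 93 aligned.

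Levels are given in TPM as deposited, a unit that sums to 1000000 in each library and that was scaled by the full span of a gene with introns. The log2 change compares tsk-4 with Col after adding 0.5 TPM, with its standard error from limma, and a call needs an adjusted p under 0.05 over all 19574 genes tested. Reads are the whole read numbers recovered from the TPM.

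In tsk-4 seedlings 3 of the 9 members tested were lower, ARR7, ARR15 and ARR4, and 0 were higher, also at an unadjusted p under 0.05 in limma and by limma-voom on recovered reads. The other 6 tested members did not pass the test, and ARR17 had too few reads to be tested. Over all tested genes 4.96% were called lower and 14.9% higher. The 9 tested members were above the filter of 1 TPM in all 6 libraries, so none entered through 1 genotype alone. Their median log2 change was -0.19, against 0.08 for all tested genes. Together the 10 members measured 151 ± 3.44 TPM in tsk-4 and 170 ± 5.55 TPM in Col (SD, n = 3 each). That sum mostly follows the abundant members. ARR3 and ARR5, not called, and ARR17, not tested, had higher means in tsk-4 than in Col. In whole seedlings fewer cells that express a gene and less RNA per cell cannot be told apart.

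**Figure D1:**
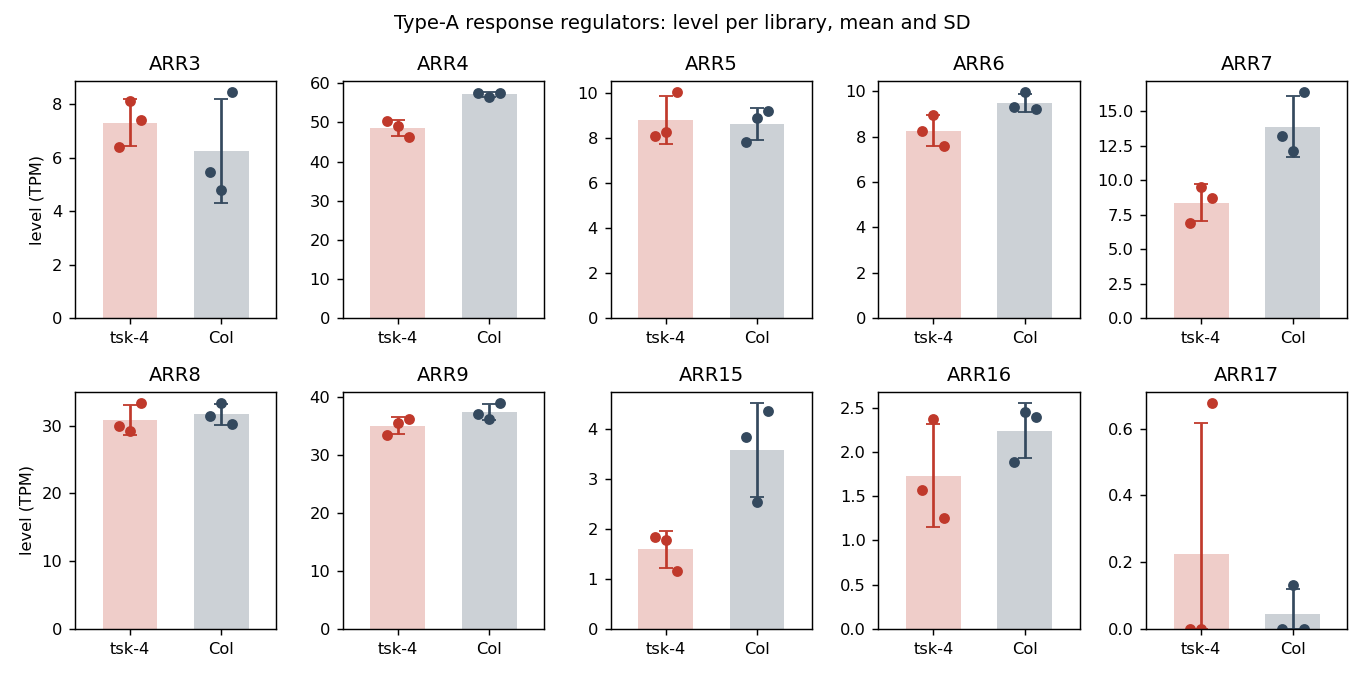
Level of each type-A gene in TPM (y axis, from 0, with its own scale per gene) in the tsk-4 and Col libraries. Points are libraries, bars are means and error bars are the SD over 3 libraries. The tsk-4 points of ARR4, ARR6, ARR7, ARR9 and ARR15 all lie below the Col points.

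ARR7 and ARR15, the pair known for restraining cytokinin signalling in meristems and in the embryonic root, fell most among the members tested. ARR7 (AT1G19050, chromosome 1, 6577833 to 6579314, minus strand) measured 6.90, 9.51 and 8.70 TPM in tsk-4 1, 2 and 3, against 13.2, 12.1 and 16.4 TPM in Col 1, 2 and 3. The highest tsk-4 library lay below the lowest Col library. The log2 change was -0.70 ± 0.15, or 0.617-fold with a 95% interval of 0.487 to 0.781 (limma adjusted p = 0.0126). The gene had 67, 90 and 84 reads in tsk-4, against 119, 120 and 158 in Col. The fall passed the test under each of the 14 alternatives run, with log2 changes of -0.82 to -0.57 and adjusted p of 0.00393 to 0.0388.

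ARR15 (AT1G74890, chromosome 1, 28131447 to 28133025, minus strand) measured 1.84, 1.79 and 1.17 TPM in tsk-4, against 3.85, 2.55 and 4.38 TPM in Col. The genotypes did not overlap here either. The log2 change was -0.95 ± 0.24, or 0.516-fold with a 95% interval of 0.352 to 0.757 (limma adjusted p = 0.0252). Adding 0.5 TPM understates the change of a gene this low, and limma-voom on recovered reads gave a log2 change of -1.23. These levels rest on few reads, 19, 18 and 12 in tsk-4 against 37, 27 and 45 in Col. Counting error alone amounts to 24.7% of the tsk-4 level and 16.6% of the Col level in a library with the mean read number, and the SD was 23.4% and 26.1%. The call was lost without tsk-4 3 (adjusted p = 0.082), without Col 1 (adjusted p = 0.0825) and without Col 3 (adjusted p = 0.0657), while limma-voom on recovered reads kept it (adjusted p = 0.0208).

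ARR4, which binds the light receptor phytochrome B, was the most abundant member and fell by a small amount. It lies on chromosome 1 (AT1G10470, 3441988 to 3444360, minus strand). It measured 50.3, 49.2 and 46.4 TPM in tsk-4, against 57.4, 56.5 and 57.5 TPM in Col, on 717 to 782 reads per tsk-4 library and 830 to 898 per Col library. The genotypes did not overlap, and the Col libraries differed by less than 2 TPM. The log2 change was -0.23 ± 0.06, or 0.852-fold with a 95% interval of 0.772 to 0.939 (limma adjusted p = 0.0308). Leaving out any library except Col 3 took the call away, with adjusted p of 0.0593, 0.0617 and 0.118 without tsk-4 1, 2 and 3 and of 0.0825 and 0.0868 without Col 1 and 2. On recovered reads it was called, with a log2 change of -0.33 (limma-voom adjusted p = 0.0048).

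Its sister ARR3 (AT1G59940) measured 6.42, 8.14 and 7.40 TPM in tsk-4, against 5.48, 4.80 and 8.45 TPM in Col. The spread within Col was wider than the distance between the genotype means, since Col 3 stood above the other Col libraries. The log2 change was 0.24 ± 0.20 with a 95% interval of -0.20 to 0.69 (limma adjusted p = 0.426). Counting error in a Col library with the mean read number is 12.4%, against an SD of 31.1%.

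ARR5 and ARR6, both rapidly induced by cytokinin and the base of common reporter lines, were not called. ARR5 (RR5 in the annotation, AT3G48100) measured 8.10, 8.26 and 10.03 TPM in tsk-4, against 7.80, 8.87 and 9.19 TPM in Col, and the genotypes overlapped. Its log2 change of 0.02 ± 0.12 had a 95% interval of -0.26 to 0.31 (limma adjusted p = 0.916), and it turned to -0.06, -0.07 and -0.07 with median-ratio scaling, quantile normalization and recovered reads. ARR6 (AT5G62920) measured 8.25, 8.95 and 7.56 TPM in tsk-4, against 9.30, 9.95 and 9.23 TPM in Col. All tsk-4 libraries lay below all Col libraries, but the log2 change of -0.19 ± 0.11 was not called (limma adjusted p = 0.251, 95% interval -0.44 to 0.05).

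ARR8 and ARR9, which respond less to cytokinin than the other members, were the next most abundant after ARR4. ARR8 (RR3 in the annotation, AT2G41310) measured 30.02, 29.2 and 33.3 TPM in tsk-4, against 31.5, 33.3 and 30.3 TPM in Col, and the genotypes overlapped. Its log2 change of -0.04 ± 0.08 had a 95% interval of -0.22 to 0.14 (limma adjusted p = 0.774). ARR9 (AT3G57040) measured 33.4, 35.5 and 36.1 TPM in tsk-4, against 36.96, 36.2 and 38.9 TPM in Col. The tsk-4 libraries were just below the Col libraries, and the log2 change of -0.09 ± 0.07 was not called (limma adjusted p = 0.388, 95% interval -0.25 to 0.06). For this pair the interval leaves out a fall as large as that measured for ARR7.

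ARR16 and ARR17 were the least abundant members. ARR16 (RR16 in the annotation, AT2G40670) measured 1.56, 2.37 and 1.26 TPM in tsk-4, against 1.88, 2.45 and 2.39 TPM in Col, on 82 and 106 reads over the 3 libraries. The genotypes overlapped, and the log2 change of -0.32 ± 0.25 had a 95% interval of -0.88 to 0.23 (limma adjusted p = 0.401). That interval includes both no change and a fall as large as that measured for ARR7. ARR17 (RR17 in the annotation, AT3G56380) had 0, 0 and 5 reads in tsk-4 and 0, 1 and 0 reads in Col. No difference could be read from 6 reads of which 5 lay in 1 library.

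**Figure D2:**
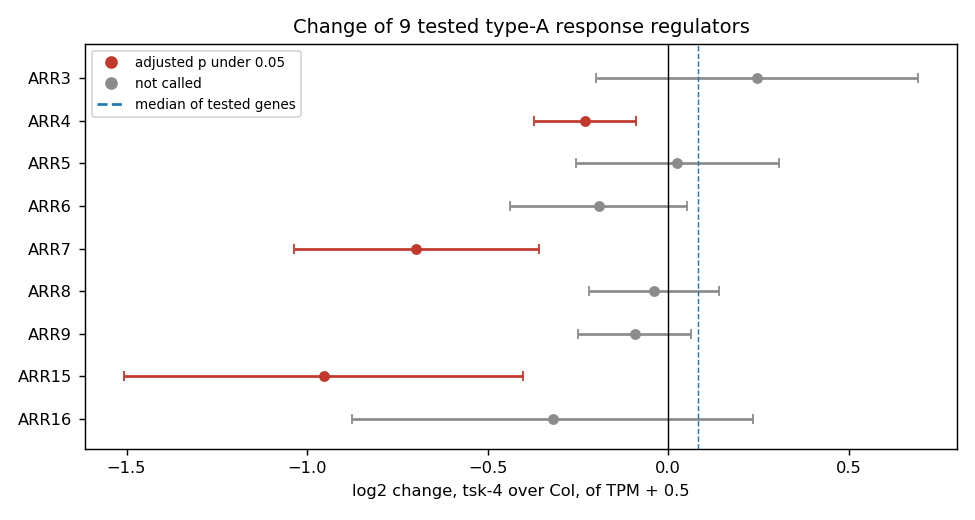
Log2 change of the 9 tested type-A genes, tsk-4 relative to Col after adding 0.5 TPM, with 95% intervals from limma. ARR4, ARR7 and ARR15 are called lower, and the dashed line marks the median of all tested genes, 0.08.

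Of the 9 tested members 5, ARR4, ARR6, ARR7, ARR9 and ARR15, had every tsk-4 library below every Col library, and 0 had every tsk-4 library above. Over all tested genes 10.9% lay below in this way and 26.7% above. Of all calls on TPM 75.0% were higher. The median log2 change of all tested genes, 0.08 on TPM, was -0.02 with quantile normalization, and of the tested members ARR5 alone changed sign there. With median-ratio scaling 53.1% of all calls were higher, and with recovered reads 51.7% were. ARR4, ARR7 and ARR15 were the members called lower under both, and on recovered reads 9.03% of all tested genes were called lower and 9.67% higher.

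The ratio of sister genes was taken within each library, after adding 0.5 TPM to each gene. ARR7 exceeded ARR15 by log2 ratios of 1.66, 2.13 and 2.46 in tsk-4, against 1.65, 2.04 and 1.79 in Col. The genotypes overlapped and the difference of 0.26 was within the spread (exact permutation p = 0.4, two-sided), so a difference between the falls of the pair was not detected. That difference was 0.14 with 1 TPM added, 0.39 with 0.1 TPM added and 0.43 on recovered reads (exact permutation p = 0.6, 0.3 and 0.2), so its size depends on the value added. ARR3 stood below ARR4 by log2 ratios of -2.88, -2.52 and -2.57 in tsk-4, against -3.28, -3.43 and -2.70 in Col (exact permutation p = 0.2). The ratios of ARR5 to ARR6 and of ARR8 to ARR9 differed between genotypes by 0.22 and 0.05 (exact permutation p = 0.3 and 0.6). Of the 5 pairs 4 were tested, and with 3 libraries against 3 the exact permutation test cannot go below p = 0.1.

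**Figure D3:**
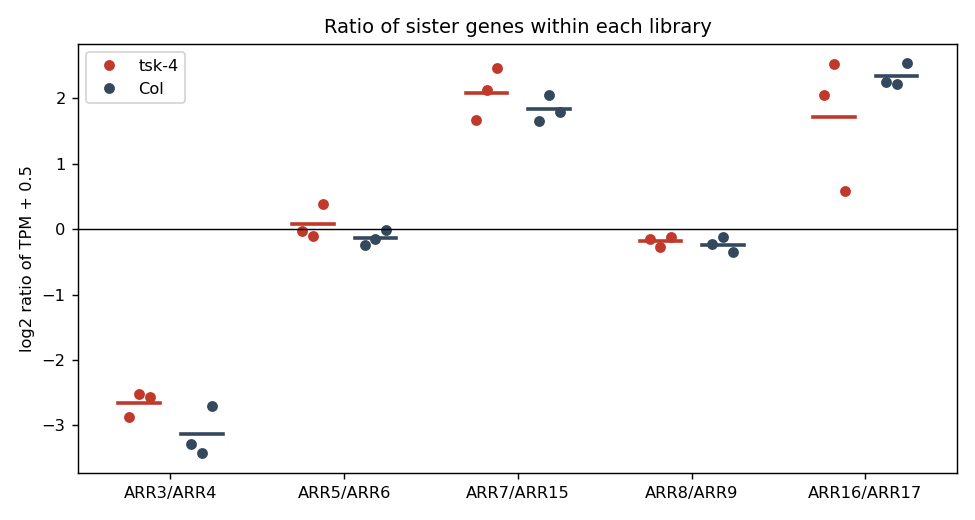
Log2 ratio of TPM + 0.5 between sister genes in each library, tsk-4 left of Col in each pair, with a line at the mean of 3 libraries. The genotypes overlap in all 5 pairs, and ARR16/ARR17 rests on 6 reads of ARR17.

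The TPM counts introns as length, and exons cover 54.5% to 88.5% of a member's span. As recovered reads per kilobase of exon, scaled to 1000000 reads per library, the order in tsk-4 was ARR4 (24.2 ± 1.06), ARR9 (20.4 ± 0.863), ARR8 (17.4 ± 1.16), ARR5 (6.73 ± 0.797), ARR7 (5.79 ± 0.949), ARR6 (5.75 ± 0.513), ARR3 (3.97 ± 0.487), ARR15 (1.03 ± 0.243), ARR16 (0.896 ± 0.305) and ARR17 (0.181 ± 0.314; SD, n = 3). ARR5, ARR7 and ARR6 overlapped in that order in tsk-4, as did ARR15 and ARR16. In Col ARR7 stood next after ARR8, at 9.75 ± 1.58, clear of ARR6 at 6.72 ± 0.299 and ARR5 at 6.71 ± 0.601, which overlapped each other. ARR15 measured 2.35 ± 0.612 in Col, clear of ARR16 at 1.18 ± 0.17, and overlapped ARR3 at 3.44 ± 1.08. The 3 most abundant members, ARR4, ARR9 and ARR8, held the same places in both genotypes.

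Of 20 flanking genes 13 were tested, 1 was higher, AT1G59930 beside ARR3 with a log2 change of 1.50 (limma adjusted p = 0.0136), and the others were not called, where 19.8% of all tested genes were called. Both neighbours of ARR15 and of ARR4 were tested and not called, and neither neighbour of ARR7 passed the filter. AT1G59930 was named after its value was seen.

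Of 19 cytokinin synthesis genes 11 were tested, 2 rose and 1 fell, with a median log2 change of 0.08, near the shares of all tested genes (14.9% higher, 4.96% lower). LOG1 (AT2G28305), a LONELY GUY enzyme that releases the active hormone base, measured 12.1, 9.39 and 10.07 TPM in tsk-4, against 16.9, 17.8 and 17.5 TPM in Col, which gave -0.71 ± 0.11 on the log2 scale (limma adjusted p = 0.00276). LOG7 (AT5G06300), an enzyme of the same family, rose to 9.06 ± 0.316 TPM in tsk-4, against 5.75 ± 0.18 TPM in Col (SD, n = 3 each; log2 change 0.61, limma adjusted p = 0.00508). LOG5 (AT4G35190) reached 2.75 ± 0.456 TPM in tsk-4, against 1.35 ± 0.261 TPM in Col (limma adjusted p = 0.0326), and lost the call in 7 of 13 alternatives, among them without any 1 library except Col 3 (adjusted p up to 0.113) and with quantile normalization (0.0571).

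The hormone-degrading oxidases gave 1 call in 4 tested of 7 genes, where 19.8% of all tested genes were called. CKX7 (AT5G21482), the cytosolic cytokinin oxidase, measured 19.8, 19.9 and 16.9 TPM in tsk-4, against 10.4, 9.97 and 10.2 TPM in Col. All tsk-4 libraries lay well above Col, by 0.85 ± 0.10 on the log2 scale (limma adjusted p = 0.000513). The oxidase gene CKX4, which cytokinin induces, was tested and not called, with a 95% interval of -0.48 to 0.40.

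None of the 3 receptor genes was called by limma, where 19.8% of all tested genes were called. AHK3 and AHK2 had log2 changes of -0.02 and -0.01 with 95% intervals of -0.24 to 0.20 and -0.21 to 0.20. AHK4, the main root receptor, had a log2 change of 0.27 (limma adjusted p = 0.0988, unadjusted p = 0.0274), and limma-voom on recovered reads did not call it either (adjusted p = 0.148).

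Of 6 phosphotransfer genes, all tested, 2 rose and 4 were not called, where 14.9% of all tested genes were higher. AHP4 (AT3G16360, chromosome 3, 5554197 to 5555789) measured 22.5, 27.9 and 20.1 TPM in tsk-4, against 2.99, 5.25 and 3.57 TPM in Col. It had 235, 284 and 209 reads in tsk-4 and 29, 56 and 37 in Col, a log2 change of 2.46 ± 0.19, or 5.49-fold (limma adjusted p = 6.23e-05), with log2 changes of 2.30 to 2.66 and a call under all 14 alternatives. AHP4 overlaps the gene AT3G03295 on the other strand, so its reads are uncertain. AHP1 (AT3G21510) rose to 27.8 ± 1.59 TPM in tsk-4, against 21.4 ± 1.66 TPM in Col (limma adjusted p = 0.0184). That call was lost in 6 of 14 alternatives, namely by limma-voom on reads (adjusted p = 0.0612), with median-ratio scaling (0.0639) and quantile normalization (0.0751), and without tsk-4 2, tsk-4 3 or Col 1 (0.0621, 0.0543 and 0.06). AHP6, the inhibitor of phosphotransfer, had 34 reads in tsk-4 and 40 in Col and was not called (limma adjusted p = 0.681).

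Type-B regulators, the activators of the type-A genes, gave 0 calls among 6 tested of 11, where 19.8% of all tested genes were called. At an unadjusted p under 0.05 there was 1, ARR11, with a log2 change of -0.35 (limma adjusted p = 0.121, and 0.0625 by limma-voom, which also called 0 of the 6). The highest by TPM, ARR1, which shares its locus with an opposite-strand gene, and ARR12, had log2 changes of 0.21 and -0.03 (limma adjusted p = 0.18 and 0.808). The 2 type-C regulators had no reads in any library.

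Of 6 cytokinin response factors CRF3 (AT5G53290) rose to 11.3 ± 0.51 TPM in tsk-4, against 8.15 ± 1.1 TPM in Col (limma adjusted p = 0.0262). On recovered reads it missed the threshold (limma-voom adjusted p = 0.101), as it did without any 1 library except Col 3 (adjusted p up to 0.0897), with median-ratio scaling (0.0566) and with quantile normalization (0.0607), and in 9 of 14 alternatives in all. CRF2, not called on TPM (adjusted p = 0.0963), was lower on recovered reads (limma-voom adjusted p = 0.0197). Of 3 other genes that cytokinin induces, GNC (AT5G56860), a GATA factor of chloroplast development, fell to 31.1 ± 3.57 TPM in tsk-4, against 40.6 ± 3.53 TPM in Col (limma adjusted p = 0.0304). Without tsk-4 1, tsk-4 2, Col 1 or Col 2 that call was lost (adjusted p of 0.0712, 0.0869, 0.0961 and 0.11), and it was lost in 5 of 14 alternatives in all. Its relative CGA1 had a log2 change of -0.0049 (limma adjusted p = 0.975), and ASL9 one of 0.73 (adjusted p = 0.0518). Over all 57 of these pathway genes 39 were tested, 6 rose and 2 fell, with a median log2 change of 0.08. These counts and the median are near those of all tested genes, of which 14.9% were higher and 4.96% lower with a median of 0.08.

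**Figure D4:**
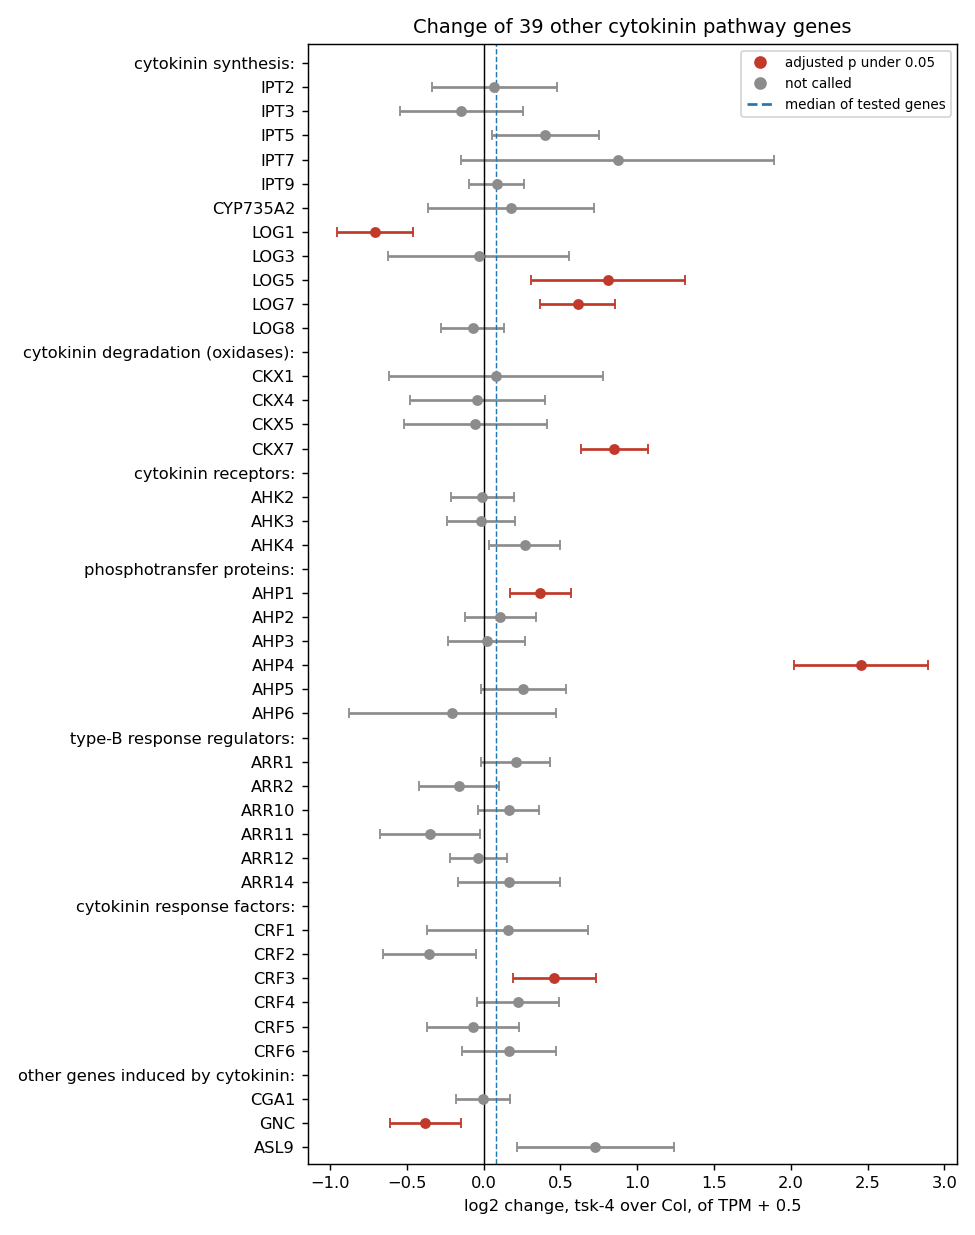
Log2 change, tsk-4 over Col, with 95% intervals from limma, of the 39 tested cytokinin pathway genes outside the type-A family, grouped by role. AHP4 stands apart at 2.46, and the type-B genes and receptors have no call.

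TSK itself had 40, 45 and 44 reads in tsk-4, against 167, 165 and 181 in Col. The gene was lower in the libraries labelled tsk-4, but where the allele lies in it is not stated. All 10 green leaf markers had reads in every library, and 8 were lower, where 4.96% of all tested genes were. By limma-voom on recovered reads all of these markers were lower, where 9.03% of all tested genes were. They summed to 73958 to 77605 TPM in tsk-4, against 94679 to 100529 TPM in Col. Of 10 root markers, all detected in every library, 2 were higher and 0 lower (1 lower by limma-voom), where 14.9% of all tested genes were higher. Their sums were 224 to 249 TPM in tsk-4 and 213 to 228 TPM in Col. Of 3 shoot meristem markers STM alone was tested and was called higher, where 14.9% of all tested genes were. STM rose to 3.69 ± 0.317 TPM in tsk-4, against 1.97 ± 0.491 TPM in Col (limma adjusted p = 0.0286), a call lost without any 1 library except Col 3. WUS, which encodes WUSCHEL, had 2, 2 and 0 reads in tsk-4 and 0 in each Col library, and CLV3 had 0 reads in tsk-4 and 2 in Col 2. The part of these organs in the lower ARR4, ARR7 and ARR15 was not tested.

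Averaged over the 9 tested members, the centred profile over the 6 libraries was most like those of AT5G01590, EIF3E (AT3G57290), AT5G52010, AT1G29070 and AT4G39960. Their Pearson correlations with it were 0.995 to 0.999 over 6 libraries, and all 5 had negative log2 changes. The 6 points share the split into 2 genotypes, and these genes were picked as the highest of all tested genes. The correlations are therefore a description, and the shared negative direction follows from the selection.

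**Figure D5:**
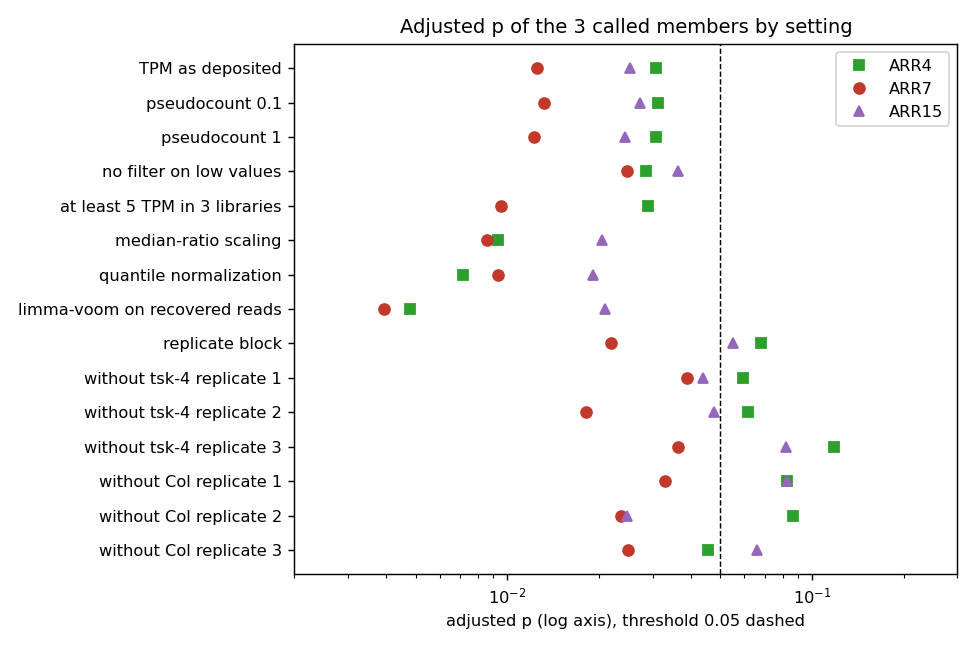
Adjusted p (log axis) of ARR4, ARR7 and ARR15 with TPM as deposited and under each alternative, with the threshold dashed. ARR7 stays left of the threshold in every row, while ARR4 crosses it in 6 and ARR15 in 4.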

How the data were processed

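The authors deposited gene levels as TPM, which sum to 1000000 in each library. Build TAIR10, DESeq2 1.26.0, HTSeq 0.11.2, HISAT2 and fastp 0.20.1 are named, per the submitters' processing notes. How they were set, and how strand and multi-mapped reads were handled, is not given there. Of 33189 rows 33056 matched the annotation of TAIR10.1, which has the nuclear chromosomes of TAIR10. Multiplied by gene span and 1 constant per library, 100% of values above 0 came out whole within 0.02 reads. The tables of transposable elements were not used.

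Genes with at least 1 TPM in 3 or more of the 6 libraries were tested with limma 3.58.1 (trend option, R 4.3.3) after log2 transformation of TPM + 0.5, with Benjamini-Hochberg adjustment over all tested genes. This scale understates changes of low genes. The fit was checked on simulated data. Alternatives were pseudocounts, filters, median-ratio and quantile scaling, limma-voom on recovered reads (at least 10 over the 6 libraries), a replicate block and leaving out each library on the same genes. Pathway and marker lists were written from general knowledge. The members and lists were chosen with earlier results of these data known. Named genes were all members, called members of each list (at most 4, by adjusted p) or its 2 most abundant, and the 5 genes with the most similar profile. AHK4, AHP6, ARR11, CRF2, CGA1, ASL9, CKX4, AT1G59930 and the markers are named beyond this rule, after their values were seen. Sister ratios were compared by exact permutation over libraries. Counting errors cover counting only. Coding and upstream sequences were aligned globally with Biopython 1.88, with free end gaps. Tables and plots used matplotlib 3.10.9, SciPy 1.17.1, pandas 2.3.3 and NumPy 2.4.6 under Python 3.11.15.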

Additional observations from a re-analysis of the deposited data

How the results depend on the processing

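Members called lower numbered 3, 1 with the replicate block and 1 to 2 with 1 library left out (1 without tsk-4 3 or Col 1); 0 were higher in any setting. With the block, limma called ARR7 alone (adjusted p = 0.0219; ARR15 0.055, ARR4 0.0681). The replicate numbers share no source in the labels, and deviations of same-numbered libraries correlated at 0.12, -0.09 and -0.11. Those of differently numbered libraries correlated at -0.18 to 0.25, so no pairing by number was seen. With 3 libraries per genotype these values cannot exclude one. The block gave 2310 higher and 750 lower genes, and took the calls of LOG5 (0.0746), CRF3 (0.0569) and GNC (0.0659). The filter of 5 TPM removed ARR15 and ARR16 from the test.

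Over all genes 2912 higher and 971 lower calls became 1815 and 1605 with median-ratio scaling, 1704 and 1660 with quantile normalization, 2093 and 1954 on recovered reads, and 1798 to 3364 and 507 to 1170 with 1 library left out (1798 and 507 without Col 2, 1822 and 575 without tsk-4 3, 629 lower without tsk-4 2 and 562 lower without Col 1). Other pathway genes gave 6 higher and 2 lower calls, 3 higher with quantile normalization, and 3 to 7 and 1 to 2 with 1 library left out (3 higher and 1 lower without tsk-4 2 or Col 1, 1 lower without Col 2). Shoot meristem calls became 0 with the filter of 5 TPM and 0 with the block, and were 0 to 1 with 1 library left out. Root markers called lower were 2 under either scaling (2 median-ratio, 2 quantile), 1 on reads, and 0 to 1 with 1 library left out. Green leaf markers called lower numbered 4 with no filter, 5 with quantile normalization and 6 to 10 with 1 library left out; the cause was not tested.

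The sign turned for ARR5 (-0.061 under median-ratio scaling, -0.068 under quantile normalization, -0.068 on reads; -0.068 without tsk-4 3 to 0.077 without tsk-4 1), AHK3 (0.0501 without tsk-4 2, 0.04 without Col 1, 0.01 without Col 2), AHK2 (-0.062 without tsk-4 1 to 0.052 without tsk-4 2) and ARR12 (-0.071 without tsk-4 3 to 0.028 without tsk-4 2), none of them called. Sister ratios kept their direction with pseudocounts of 0.1 and 1 and, for the 4 pairs with reads in every library, on reads. Levels per kilobase of exon, over all 6 libraries, differed from TPM by more than the spread between libraries for 7 members: 3.71 for ARR3, 26.5 for ARR4, 6.72 for ARR5, 6.24 for ARR6, 17.8 for ARR8, 21.3 for ARR9 and 1.04 for ARR16. Both units differ in length and in scaling, so this count reflects the units and each member's spread. It does not rank members by sensitivity to processing.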
